A study of Mus musculus with 11 samples.

Results

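The genes described here are 10 that mark heat-producing brown fat, Ucp1, Dio2, Cidea, Elovl3, Adrb3, Cox8b, Cox7a1, Kcnk3, Otop1 and Slc36a2, chosen by name and read wherever the tables of brown adipose tissue (BAT) and liver list them. The liver table lists 10 of the 10, and 2 of the 10, Dio2 and Kcnk3, are listed for BAT. Together the tables hold 4474 genes, 2500 in each tissue.

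Poly(A) RNA was sequenced from mice with floxed alleles of Adcyap1r1, which encodes PAC1, the receptor of the neuropeptide PACAP (the sample labels spell it Acypap1r1). All groups carried these alleles, all had a virus injected into the preBötzinger complex, the brainstem site of the breathing rhythm, and all went through a procedure named SEFL, which the labels leave as an abbreviation. Controls received AAV-GFP, a virus for the green fluorescent protein, and Cre mice received AAV-Cre, whose recombinase cuts out floxed sequence. The libraries analysed are controls 1 and 2 and Cre 4, 5 and 6 from BAT, and controls 7, 8 and 9 and Cre 10, 11 and 12 from liver. Age, sex, strain, the promoter driving Cre, and whether each library is 1 animal are not given in the labels, so p-values describe the spread between libraries, which may be technical.

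Brown adipocytes burn fuel to make heat. Noradrenaline from sympathetic nerves binds the beta-3 adrenergic receptor (Adrb3), cAMP rises, and the uncoupling protein UCP1 lets protons leak back across the inner mitochondrial membrane, so that respiration gives heat in place of ATP. Hepatocytes are not known for this program, whereas Elovl3 is also a liver gene in the mouse, higher in males.

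Each value is a z-score, the gene's distance from its own mean in units of its own SD over 6 libraries, with a maximum of 2.24. In BAT 1 of the 6 scaled libraries is not analysed, so highest, lowest and separated there refer to the other 5 only. It places a library for a gene and gives no level, no depth and no fold, so scores cannot show how much Ucp1 RNA there was, or whether BAT libraries express the brown fat markers that their table does not list. A value near 2.2 means that 1 library stood alone and the others were pressed together. In whole tissue, fewer cells of a type and less RNA per cell cannot be told apart. The BAT table is labelled as downregulated in Cre and the liver table as upregulated in Cre. Both hold genes of either direction, with a higher Cre mean in 17.5% of BAT genes and 39.6% of liver genes. The rule by which genes were taken into the tables was not given in the sources used here. Shares of all genes below are therefore shares of the 2500 genes listed for a tissue, not of all expressed genes.

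Promoter windows of 3 of the genes are shown. All 5 genes with a matched window share 1 pattern in liver, described next, so that pattern does not single out these 3. RefSeq windows (GRCm38.p6, 250 bases before to 50 after the start, on the gene's strand) matched 5 of the 10 genes, namely Ucp1, Dio2, Cox8b, Cox7a1 and Otop1. Capitals mark TGACG or its complement CGTCA, the core of the cAMP response element, and AGGTCA or its complement TGACCT, a half-site of nuclear receptors.
Ucp1 (chr8:83290098-83290397, + strand): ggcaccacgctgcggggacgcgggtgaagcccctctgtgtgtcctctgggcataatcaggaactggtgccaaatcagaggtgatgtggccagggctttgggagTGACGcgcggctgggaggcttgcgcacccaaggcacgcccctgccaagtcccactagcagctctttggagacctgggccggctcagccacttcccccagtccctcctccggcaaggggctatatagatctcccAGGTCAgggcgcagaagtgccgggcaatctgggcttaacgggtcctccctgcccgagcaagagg
Dio2 (chr12:90738989-90739288, - strand): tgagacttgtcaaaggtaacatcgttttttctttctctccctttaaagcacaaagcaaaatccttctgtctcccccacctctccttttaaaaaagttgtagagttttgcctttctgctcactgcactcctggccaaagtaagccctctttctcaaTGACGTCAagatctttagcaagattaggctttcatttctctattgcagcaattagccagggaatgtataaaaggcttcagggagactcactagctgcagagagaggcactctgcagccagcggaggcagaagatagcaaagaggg
Cox8b (chr7:140900397-140900696, - strand): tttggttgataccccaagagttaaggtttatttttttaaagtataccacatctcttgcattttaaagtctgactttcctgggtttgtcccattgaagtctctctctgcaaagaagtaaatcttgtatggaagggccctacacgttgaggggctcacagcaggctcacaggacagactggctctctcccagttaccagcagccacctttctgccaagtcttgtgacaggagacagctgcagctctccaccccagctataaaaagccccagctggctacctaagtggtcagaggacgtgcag
The Dio2 window holds a whole cAMP response element, TGACGTCA, starting at -95 from the RefSeq start, in which both cores overlap. The element was present in 1.79% of the 32851 windows, searched on both strands. The Ucp1 window holds TGACG at -147, found on either strand in 20.8% of windows, and AGGTCA at -14, found in 16.3%. The windows of Cox8b, Cox7a1 and Otop1 hold none of these letters. A match or its absence describes these letters in this window only.

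In liver, 8 of the 10 genes had their highest score in the same library, Cre 12, and all 8 were above 2 there. Cre 12 was the highest library for 17.2% of all 2500 liver genes and above 2 for 3.04%. The 8 were Ucp1, Cidea, Cox8b, Cox7a1, Dio2, Kcnk3, Otop1 and Slc36a2. The exceptions were Elovl3, highest in control 7, and Adrb3, highest in control 8.

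**Figure D1:**
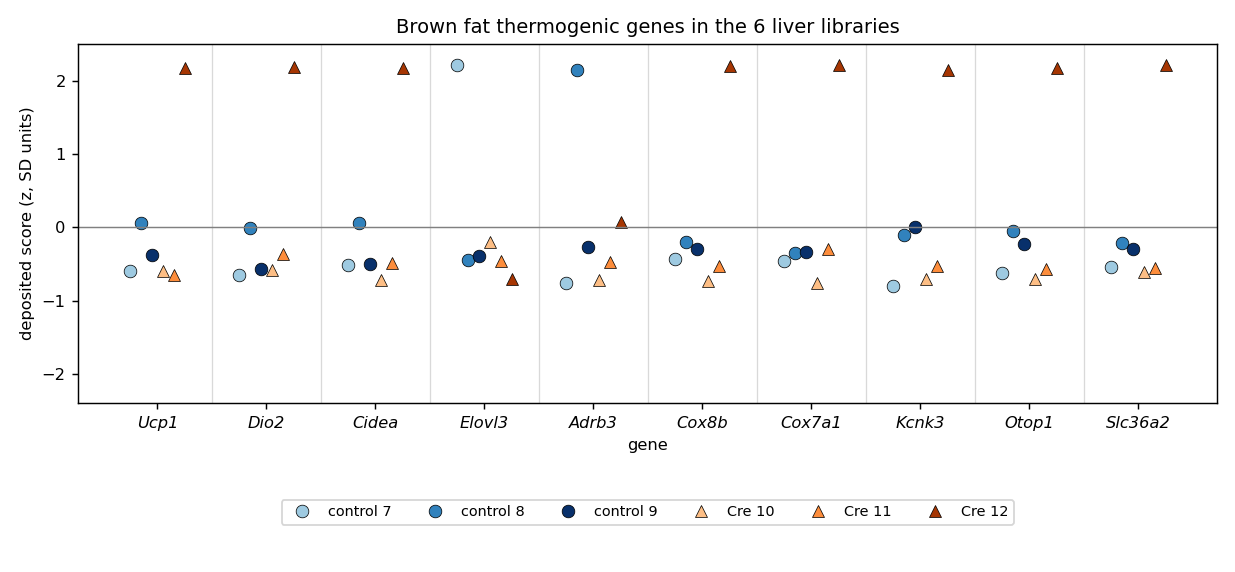
Deposited z-score (vertical axis, SD units) of the 10 genes in each of the 6 liver libraries, with circles for controls and triangles for Cre. Cre 12 sits above 2 for 8 genes, control 7 at 2.21 for Elovl3 and control 8 at 2.15 for Adrb3.

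Ucp1, the uncoupler itself (ENSMUSG00000031710.4, chromosome 8, 83290352 to 83298452, + strand, in the GENCODE annotation of GRCm38), scored -0.59, 0.054 and -0.39 in controls 7, 8 and 9, against -0.60, -0.65 and 2.17 in Cre 10, 11 and 12. Cre 12 alone was high, and Cre 10 and Cre 11 lay below all 3 controls. The Cre mean was 0.31 ± 1.61 (SD, n = 3) and the control mean -0.31 ± 0.33 (SD, n = 3). The difference of 0.62 had a standard error of 0.95 and a limma adjusted p of 0.73.

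Cidea, a protein of the lipid droplet surface in brown adipocytes (ENSMUSG00000024526.9, chromosome 18, 67343604 to 67367785, + strand), scored -0.51, 0.062 and -0.50 in controls 7, 8 and 9, against -0.73, -0.49 and 2.17 in Cre 10, 11 and 12. As with Ucp1, Cre 12 stood alone and control 8 came next. The annotation places a transcript on the opposite strand over Cidea, and use of strand in the counting was not given in the sources used here.

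The respiratory chain isoforms behaved alike. Cox8b and Cox7a1 encode the subunit VIII and VIIa isoforms of cytochrome c oxidase found in heart, skeletal muscle and brown fat, in contrast to the broadly expressed forms Cox8a and Cox7a2. Cox8b (ENSMUSG00000025488.9, chromosome 7, 140898945 to 140900446, - strand) scored -0.44, -0.21 and -0.30 in controls 7, 8 and 9, against -0.73, -0.53 and 2.20 in Cre 10, 11 and 12. Cox7a1 (ENSMUSG00000074218.3, chromosome 7, 30184144 to 30186078, + strand) scored -0.46, -0.35 and -0.33 in the controls and -0.77, -0.30 and 2.21 in Cre 10, 11 and 12. In both genes Cre 10 was the lowest library. The distance from Cre 12 to the next library was 2.51 for Cox7a1, and 5.4 times the whole range of the other 5 libraries.

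Dio2, the deiodinase that turns thyroxine into active thyroid hormone inside brown adipocytes (ENSMUSG00000007682.6, chromosome 12, 90724552 to 90738438, - strand), scored -0.66, -0.0076 and -0.57 in controls 7, 8 and 9, against -0.59, -0.37 and 2.18 in Cre 10, 11 and 12. Its difference of 0.82 was the largest of the 10 genes in the direction of a higher Cre mean, with a standard error of 0.91 and a limma adjusted p of 0.67. The groups overlapped, since Cre 10 and Cre 11 lay inside the control range.

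Of the channels and transporters, Kcnk3 encodes the 2-pore potassium channel TASK-1 (ENSMUSG00000049265.7, chromosome 5, 30588170 to 30625271, + strand), which sets membrane potential in brown adipocytes. It scored -0.80, -0.11 and 0.0048 in controls 7, 8 and 9, against -0.70, -0.53 and 2.14 in Cre 10, 11 and 12. Otop1, a proton channel gene (ENSMUSG00000051596.13, chromosome 5, 38275972 to 38304217, + strand), scored -0.62, -0.048 and -0.22 in the controls and -0.71, -0.57 and 2.17 in Cre 10, 11 and 12. Slc36a2, a proton-coupled amino acid transporter of the brown adipocyte surface (ENSMUSG00000020264.5, chromosome 11, 55158470 to 55185077, - strand), scored -0.54, -0.21 and -0.29 in the controls and -0.61, -0.55 and 2.21 in Cre 10, 11 and 12. In all 3 genes Cre 12 was high alone, and Cre 10 and Cre 11 lay within or under the control range.

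Adrb3, the receptor through which noradrenaline starts the program (ENSMUSG00000031489.15, chromosome 8, 27225776 to 27250616, - strand), went another way. It scored -0.76, 2.15 and -0.27 in controls 7, 8 and 9, against -0.72, -0.47 and 0.066 in Cre 10, 11 and 12. Control 8, the highest library for 56.4% of all liver genes, was high alone, and Cre 12 was next at 28.5% of the distance between the lowest and the highest library. The limma difference was -0.75 with a standard error of 0.93 and an adjusted p of 0.69, and it was 0.14 without control 8. All 8 of the 8 B and plasma cell genes and all 5 of the 5 T and NK cell genes in the table were also highest in control 8, where the mean of the B and plasma cell list was 2.03. That mean was -0.53 in control 7, -0.0019 in control 9 and between -0.68 and -0.20 in Cre. Their part in the Adrb3 score was not tested. An antisense transcript overlaps Adrb3 in the annotation.

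Elovl3, an elongase of very long chain fatty acids (ENSMUSG00000038754.5, chromosome 19, 46131897 to 46135694, + strand), scored 2.21, -0.45 and -0.40 in controls 7, 8 and 9, against -0.20, -0.46 and -0.70 in Cre 10, 11 and 12. Control 7, the highest library for 7.56% of all liver genes, was high alone, and Cre 12 held the lowest score of the 6. The limma difference was -0.91 with a standard error of 0.89 and an adjusted p of 0.65, and it was -0.033 without control 7. The 4 Y-linked genes in the table were highest in control 7 too, with a mean of 2.02 there, 0.27 and -0.42 in controls 8 and 9, and -0.66 to -0.59 in Cre. Their part in the Elovl3 score was not tested. The gene overlaps the oppositely oriented Pitx3.

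None of the 10 genes passed an adjusted p of 0.05 in the limma model over the 2500 liver genes, where 0.00% of all genes did. At an unadjusted p of 0.05 the count among the 10 was 0, against 5.76% of all genes, and with limma's variance moderation it was 0 as well. The groups did not overlap in 0 of the 10, against 22.6% of all genes. The Cre mean was the higher one in 8 of the 10, against 39.6% of all liver genes, and the median difference over the 10 was 0.62, against -0.50 over all genes.

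That count turned on Cre 12. On ranks within each gene it was 4 of the 10, against 1073 of the 2500 liver genes. Without Cre 12 the Cre mean was the higher one in 0 of the 10 and the lower one in 10 of the 10, against 63.6% of all genes. The mean score over the 10 genes was -0.32, 0.088 and -0.33 in controls 7, 8 and 9, -0.64 and -0.49 in Cre 10 and 11, and 1.68 in Cre 12. Cre minus control of that mean was 0.37 with all libraries and -0.38 without Cre 12. Ucp1, Cox8b and Slc36a2 had Cre 10 and Cre 11 below all 3 controls, 3 of the 10 genes, against 17.4% of all genes in that direction. The margin was narrow for Ucp1, with Cre 10 at -0.601 and control 7 at -0.594. It was narrow for Slc36a2 too, with Cre 11 at -0.552 and control 7 at -0.542. Without Cre 12 the smallest unadjusted limma p among the 10 was 0.066, for Cox8b, and its limma adjusted p was 0.81.

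**Figure D2:**
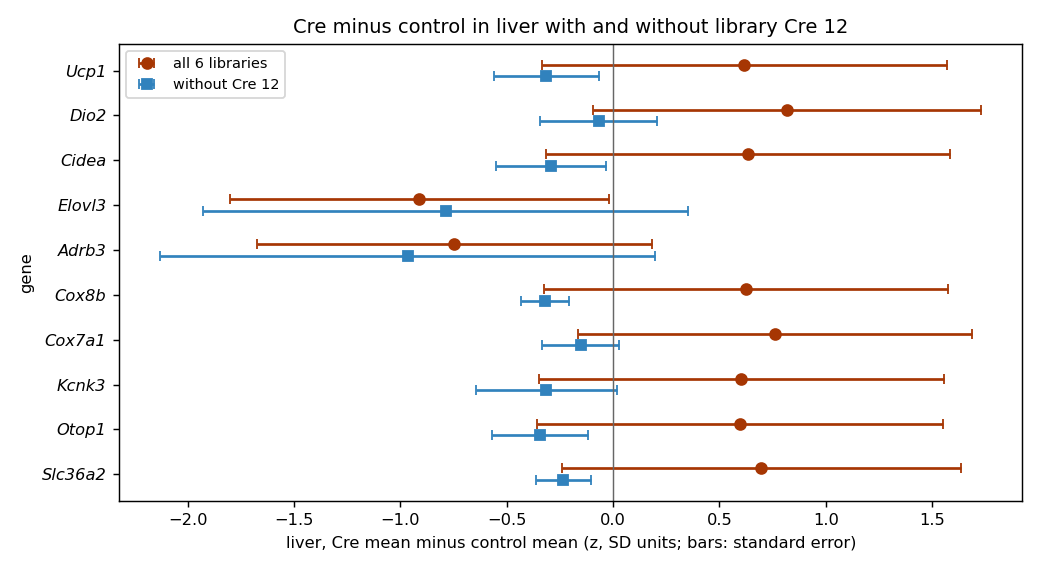
Cre mean minus control mean in liver (horizontal axis, z-score units, bars show the standard error) for the 10 genes, with all 6 libraries (circles) and without Cre 12 (squares). The squares lie below 0 for all 10 genes, from -0.96 for Adrb3 to -0.068 for Dio2, while the circles lie above 0 for 8.

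Because 1 high library compresses the others, the 5 remaining liver libraries were also placed between their own lowest (0%) and highest (100%) value, a measure that the scaling leaves unchanged. Control 8 was the highest of the 5 for Ucp1, Dio2, Cidea, Cox8b, Otop1 and Slc36a2, 6 of the 8 genes, and Cre 10 the lowest for 5. Control 8 was the highest library for 56.4% of all 2500 liver genes even with Cre 12 included, so its place does not single out these genes. Shares of all genes among the 5 libraries were not counted for control 8 or Cre 10. For Ucp1 control 9 lay at 37.3%, control 7 at 7.33% and Cre 10 at 6.36% of that range, and Cre 11 was the lowest. Cox7a1 was highest in Cre 11 and Kcnk3 in control 9. The step from the highest of the 5 to Cre 12 was 2.65 ranges of the 5 for Kcnk3, the least of the 8 genes, and 6.02 for Slc36a2, the most.

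**Figure D3:**
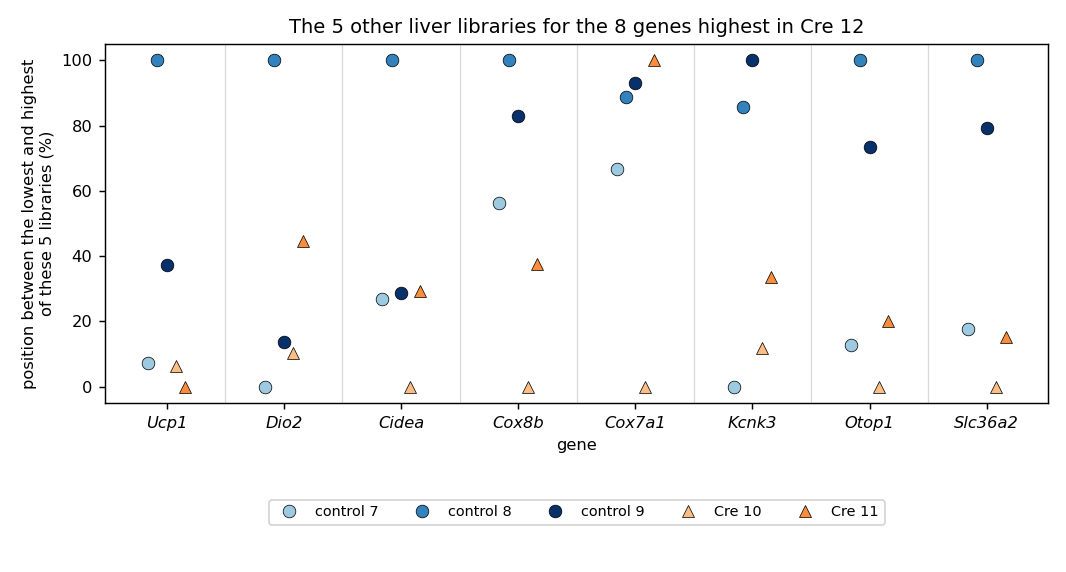
Position of the 5 liver libraries other than Cre 12 between the lowest (0%) and the highest (100%) of the 5, for the 8 genes highest in Cre 12. Control 8 is at 100% for 6 genes and Cre 10 at 0% for 5. With Cre 12 included, control 8 is the highest library for 56.4% of all liver genes.

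Genes of the wider program were divided between libraries. Of 35 further thermogenic program genes 8 were in the liver table, and 4 of them were highest in Cre 12. These were Cpt1b, the mitochondrial fatty acid importer of muscle and brown fat, at 1.76, the fatty acid carrier Fabp3 at 2.17, the pyruvate dehydrogenase kinase Pdk4 at 2.19 and the UCP1 relative Ucp3 at 2.13. The other 4 were Gpd2, highest in control 7, and Irf4, Ntrk3 and Nrg4, highest in control 8 with 2.12, 1.71 and 2.0 and at -0.11, 0.37 and 0.21 in Cre 12. Of the list on adrenergic receptors, cAMP and lipolysis 7 genes were in the table and 6 were highest in Cre 12, among them the adenylyl cyclase Adcy3 at 2.17 and the protein kinase A subunit Prkar2b at 2.09, while the clock gene Per1 was highest in control 8.

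Of 13 adipocyte markers 7 were in the liver table, and all 7 were highest in Cre 12. Their list mean was -0.40 to -0.18 in controls, -0.50 and -0.68 in Cre 10 and 11, and 2.06 in Cre 12. Adipoq, the adiponectin gene of all adipocytes, scored 2.20 there, and Pparg, the nuclear receptor gene of adipocyte differentiation, was the lowest of the 7 at 1.65. Of 5 further lipid droplet genes listed for liver, 3 were highest in Cre 12, Cidec at 2.18, Plin1 at 2.19 and Plin4 at 1.71, while Plin2 was highest in Cre 11 and at 0.42 in Cre 12, and Fitm1 highest in control 7 and at -0.70 in Cre 12. None of the 8 white adipocyte markers was in the liver table. Of the 17 skeletal muscle markers listed for liver, all but Neb, 16 in number, were highest in Cre 12, where the list averaged 2.01, against -0.50 to -0.08 in controls and -0.52 and -0.45 in Cre 10 and 11. Acta1, the actin of skeletal muscle, scored 2.23 there, while Neb, a giant sarcomere protein gene, was highest in control 8 at 2.04 and at -1.08 in Cre 12. Hepatocyte markers averaged 0.34 over 7 genes in Cre 12, below the 0.56 of Cre 11 and above the 0.29 of Cre 10. The same list mean was 0.27 for control 7 and -0.27 for control 9, while control 8 was the lowest library at -1.20. Single markers differed within Cre 12, from -0.84 for Apoa1 to 1.54 for Tat. Albumin (Alb) scored 0.64 there, Fga -0.062 and Hamp -0.0047. The part of adipocytes or muscle in the scores of the 8 genes was not tested, and z-scores do not show which markers were at 0 reads in a library.

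**Figure D4:**
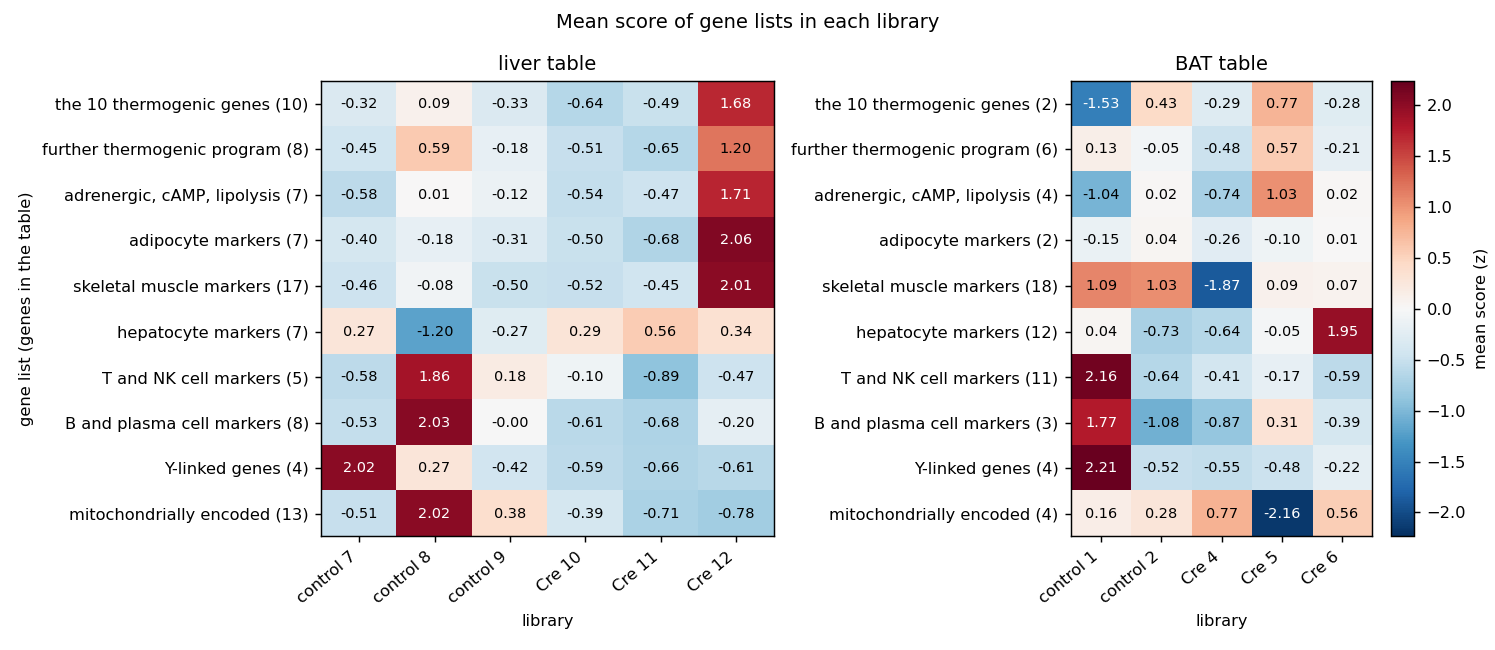
Mean z-score of gene lists (rows, with the number of genes in the table in brackets) in each library (columns) of liver and BAT. In liver Cre 12 the 10 thermogenic genes average 1.68, adipocyte markers 2.06 and muscle markers 2.01, while control 8 carries the lymphocyte and mitochondrially encoded genes and control 7 the Y-linked ones.

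Within each table the 5 genes most like each of the 10 by Pearson r were found, as a description over 6 liver libraries in which 1 library sets most of the value. Among those closest to Ucp1 were Plin1 (r = 0.999), Otop1, Cidea and Ucp3. Closest to Dio2 were Nr4a1 (0.999), a nuclear receptor gene induced by cAMP, Rgcc, Adipoq, Adig and Ckm. Closest to Slc36a2 was the fast muscle troponin gene Tnni2 (0.999), and to Cidea the slow myosin gene Myh7 (0.997). Cox8b was most like Slc36a2, and Cox7a1 most like Gpx3, a secreted glutathione peroxidase. Kcnk3 was most like Prkar2b (0.993), and Plin1 was among the genes closest to Otop1 (0.996). For Elovl3 the closest were the Y-linked Ddx3y (0.995), Tmem28, Nat8f6, Gabrq and Cyp4a12b, a cytochrome P450 gene of male mouse liver. For Adrb3 they were Uhrf1 (0.998), a gene of dividing cells, Prss53, Slfn4, Pik3r6 and Spib, a transcription factor gene of B and plasmacytoid dendritic cells.

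In BAT, Dio2 scored -1.54 and 1.39 in controls 1 and 2, against -0.80, -0.037 and -0.024 in Cre 4, 5 and 6. The controls held both ends of the range, with all 3 Cre libraries between them. The Cre mean was -0.29 ± 0.45 (SD, n = 3) and the control mean -0.079 ± 2.07 (SD, n = 2). The limma difference was -0.21 with a standard error of 1.14 and an adjusted p of 0.89, and it was -1.67 without control 1 and 1.26 without control 2.

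Kcnk3 in BAT scored -1.52 and -0.53 in controls 1 and 2, against 0.22, 1.57 and -0.53 in Cre 4, 5 and 6. Cre 5 was the highest and control 1 the lowest. Among the 5 analysed libraries every Cre library lay above both controls, but Cre 6 exceeded control 2 by only 0.0023. In that direction 4.36% of the 2500 BAT genes were separated, and 33.0% in either direction. The separation, the shares and the means leave out 1 library that was scaled with these 5, so they may not hold with it included. The Cre mean was 0.42 ± 1.06 (SD, n = 3) and the control mean -1.02 ± 0.69 (SD, n = 2), a difference of 1.45 with a standard error of 0.87 and a limma adjusted p of 0.53. The difference was 0.95 without control 1 and 0.87 without Cre 5. Neither Dio2 nor Kcnk3 passed over all BAT genes, of which 0.00% did, and both had an unadjusted limma p above 0.05 where 11.4% of genes were under it. With variance moderation both stayed above 0.05. The Cre mean was the higher one in 1 of the 2, against 17.5% of BAT genes.

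**Figure D5:**
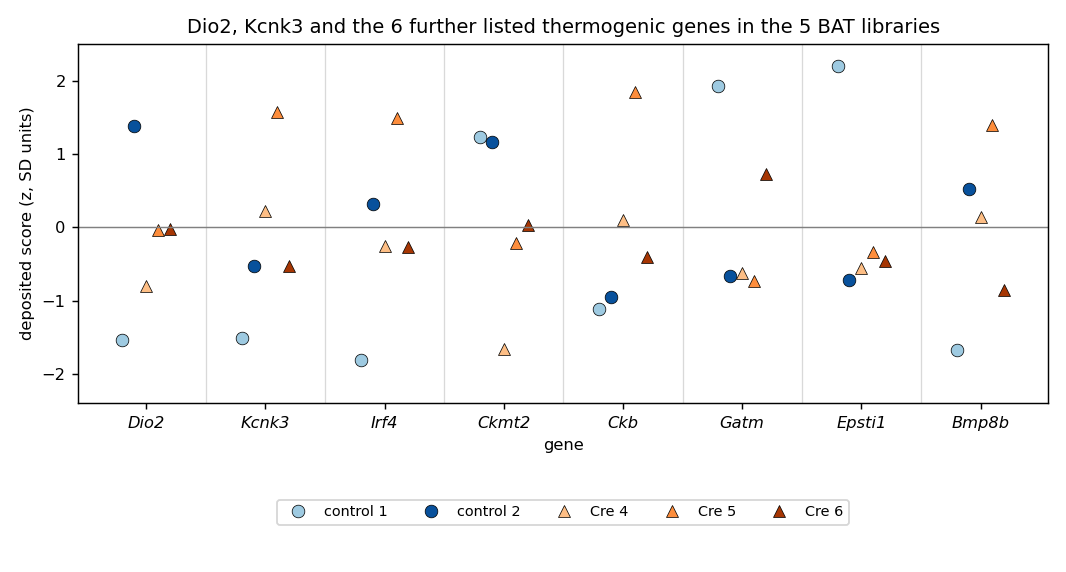
Deposited z-score (vertical axis, SD units) of Dio2, Kcnk3 and all 6 further listed thermogenic genes in the 5 analysed BAT libraries, with circles for controls and triangles for Cre. Control 1 is lowest for 5 of the 8 genes, Dio2, Kcnk3, Irf4, Ckb and Bmp8b, and highest for the other 3, Ckmt2, Gatm and Epsti1.

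Other brown fat genes in the BAT table differed in which library was highest. Of the 35 further thermogenic genes 6 were listed, 3 with a higher and 3 with a lower Cre mean, and none passed the adjusted threshold. The transcription factor gene Irf4, the creatine kinase gene Ckb and the secreted factor gene Bmp8b were highest in Cre 5, at 1.49, 1.84 and 1.40, and lowest in control 1, at -1.81, -1.12 and -1.67, as Kcnk3 was. Ckmt2, the mitochondrial creatine kinase of striated muscle and brown fat, was at 1.24 and 1.17 in controls 1 and 2, against -1.66, -0.22 and 0.027 in Cre 4, 5 and 6. All 18 skeletal muscle markers were in the table, with a mean of 1.09 and 1.03 in controls 1 and 2, against -1.87, 0.090 and 0.072 in Cre 4, 5 and 6. The part of muscle in the Ckmt2 score was not tested. Gatm, an enzyme gene of creatine synthesis, was highest in control 1 at 1.92, with -0.66 in control 2 and -0.62, -0.74 and 0.73 in Cre 4, 5 and 6. Epsti1 was high in control 1 alone, at 2.20, with the other 4 libraries between -0.73 and -0.33. Of the adrenergic and cAMP list 4 genes were in the table, all highest in Cre 5 among the 5 analysed libraries. The adenylyl cyclase genes Adcy3 and Adcy5 scored 0.76 and 1.41 there, and the cAMP-induced Nr4a1 and Nr4a3 1.57 and 0.37. The scaled library that is not analysed may lie higher. Among the 5, the lowest library was control 1 for Adcy3, Cre 6 for Adcy5 and Cre 4 for Nr4a1 and Nr4a3.

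Control 1 was the highest library for 70.7% of all BAT genes and the lowest, as for Dio2 and Kcnk3, for 9.12%. It had a mean of 2.16 over genes of T and NK cells, while the other 4 BAT libraries lay between -0.64 and -0.18. For the 4 Y-linked genes it was 2.21, with -0.55 to -0.22 elsewhere. In Cre 5 the 4 mitochondrially encoded genes averaged -2.16, and 2 of the 3 listed respiratory chain genes, the broadly expressed cytochrome c oxidase subunit genes Cox7a2 and Cox7c, were at -2.15 and -2.16. The other 1 of the 3, Cox6a2, was at 0.0046 in Cre 5, at 1.11 and 1.15 in controls 1 and 2, and lowest in Cre 4 at -1.80. The part of all these genes in the scores of Dio2 and Kcnk3 was not tested.

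Genes most like Dio2 over the 5 BAT libraries were Mtmr7, Sdc4, Pitx3, Cxcl15 and Ido1, and those most like Kcnk3 were Hsd17b14, Scnn1g, Lrrc52, Hlx and Rgs3. None of them is in the lists of brown fat or adrenergic genes. Side by side, Kcnk3 differed by 1.45 in BAT and 0.60 in liver and Dio2 by -0.21 and 0.82, on scores scaled separately in each tissue, so the sizes are not comparable and the tissue difference was not tested.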

How the data were processed

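The tables hold 1 score per gene and library, which the authors deposited, and the values show them to be row z-scores. In liver the squares of the 6 scores sum to 6 in all 2500 genes, within 1e-06. In BAT they do so in all 2500 genes only when a further value, minus the sum of the 5, is added, so 6 libraries were scaled there and 1 is not analysed here. Per the submitters' processing notes, TopHat 1.3.3 and DESeq2 1.20.0 were used, with the builds mm9, mm10 and GRCm38 named without a role. Whether values were log transformed before scaling, and whether the counting used strand, was not given in the sources used here. Depth is unknown, so no counting interval is given.

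Cre was compared with control in each tissue by limma 3.58.1 (R 4.3.3), a two-sided gene-wise linear model without variance moderation, since all genes share 1 total variance after scaling. P-values were adjusted by Benjamini-Hochberg over all genes of the table, with a threshold of 0.05, and genes with a residual SD under 1e-06 were not tested. The script was tested on simulated z-scored tables. Alternatives were variance moderation, ranks, removal of genes tied at their lowest score, rescaling of BAT over 5 libraries, and each library left out. The 10 genes and all gene lists were chosen with earlier results of these data known. All of the 10 are named with every value, and of other lists up to 8 genes in list order. The exceptions are Neb in liver and Cyp2e1 in BAT, chosen after their values were seen. A gene among those most alike in pattern is not reported here. Gene positions are from GENCODE M21 (GRCm38), in which 10 of 10 symbols matched. Summaries used Python 3.11.15 with pandas 2.3.3, and figures matplotlib 3.10.9.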

Additional observations from a re-analysis of the deposited data

How the results depend on the processing

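No paired analysis was possible because the labels do not say which libraries share an animal. For 8 of the 10 genes in liver the direction of Cre minus control depended on Cre 12. With each library left out in turn, the difference ran from -0.31 to 1.09 for Ucp1, -0.068 to 1.32 for Dio2, -0.29 to 1.16 for Cidea, -0.32 to 1.15 for Cox8b, -0.15 to 1.34 for Cox7a1, -0.31 to 1.11 for Kcnk3, -0.34 to 1.10 for Otop1 and -0.23 to 1.18 for Slc36a2, with the lowest value in each case without Cre 12. It ran from -1.31 to 0.14 for Adrb3, the latter without control 8, and from -1.36 to -0.033 for Elovl3. The number of the 10 genes with a higher Cre mean ran from 0 to 9, and Cre minus control of their mean score from -0.38 to 0.78. On ranks within each gene 1 extreme library weighs no more than its place. The count on ranks was 4 of the 10, against 1073 of the 2500 liver genes. The rank difference was -1.0 for Ucp1, Cox8b and Slc36a2 and -0.33 for Otop1. In BAT the leave-one-out difference ran from -1.67 to 1.26 for Dio2, that of the mean score of both genes from -0.36 to 1.60, with the lowest value without control 1 in each, and the number with a higher Cre mean from 1 to 2. All-gene counts past the adjusted threshold ran from 0 to 0 in liver and from 0 to 433 in BAT, where the 433 came without control 2, leaving control 1 alone and assuming that it varies like the Cre libraries. Neither Dio2 nor Kcnk3 passed there. The remaining alternatives, namely variance moderation, removal of tied genes and rescaling of BAT, changed no direction and no call. The causes were not tested. Scores without depth allow no statement on genes with few reads.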

Other observations

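The BAT table holds markers of the other tissue, as the liver table holds those of brown fat. Of 14 hepatocyte markers 12 were in the BAT table, and 11 of these were highest in Cre 6, where the list averaged 1.95 against -0.73 to 0.043 in the other 4 BAT libraries. Albumin (Alb) scored 2.11 and transthyretin (Ttr) 2.18 there, while Cyp2e1, a cytochrome P450 gene, was highest in Cre 5 at 0.71. In Cre 6, Dio2 and Kcnk3 were at -0.024 and -0.53. Whether any BAT and liver libraries came from the same animal is not in the labels, and the scores do not show how many reads these markers had.

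Adipocyte hormones in BAT moved apart from each other. Cfd, the adipsin gene, scored -1.30 and -0.82 in controls 1 and 2, against 0.22, 1.61 and -0.54 in Cre 4, 5 and 6, and Lep, the leptin gene, 1.01 and 0.90 in the controls and -0.73, -1.82 and 0.56 in Cre. In both genes the analysed Cre and control libraries did not overlap, in opposite directions, as 33.0% of BAT genes did not. Every Cre library was above every control, as for Cfd, in 109 of the 2500 BAT genes. Every Cre library was below every control, as for Lep, in 717. The scaled library that is not analysed is left out of these counts. Neither Cfd nor Lep passed the adjusted threshold in limma.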
